A study of Mus musculus with 15 samples.

Results

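The 9 genes described here handle retinoic acid or respond to it: Cyp26a1, Cyp26b1, Rara, Rarb, Rarg, Dhrs3, Crabp1, Crabp2 and Aldh1a2. They were chosen by name, and all 9 were matched by symbol among the 43432 gene identifiers of the count tables. Polyadenylated RNA was sequenced from 15 mouse induced extraembryonic endoderm stem (iXEN) lines of CD1 genotype, all obtained by reprogramming embryonic fibroblasts with Sox2, Klf4 and Myc, with or without Oct4. In the retroviral OSKM group 5 lines carried retroviral Oct4, Sox2, Klf4 and Myc, and each was a clone grown from a single cell with an active Oct4-EGFP reporter. In the lentiviral OSKM group 5 lines received the same 4 factors by lentivirus, and in the lentiviral SKM group 5 lines received the 3 factors without Oct4. The lentiviral lines were beyond passage 11, each from a fibroblast preparation of its own. For the retroviral clones the number of preparations is not stated, and tests that involve them measure only the spread between clones. Titles call the lentiviral lines IPS, and some sample fields name embryonic stem cells as the starting cells. The groups used here follow the titles and the series description.

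Retinoic acid is made from dietary vitamin A. Retinol is oxidised to retinaldehyde, a step that Dhrs3 reverses, and retinaldehyde dehydrogenases such as Aldh1a2 make retinoic acid from it. The CYP26 enzymes degrade retinoic acid, the CRABP proteins bind it in the cytoplasm, and the nuclear receptors Rara, Rarb and Rarg, paired with RXR partners, switch on target genes when it is bound. Several members of this pathway, among them Cyp26a1, Rarb and Dhrs3, are themselves induced by retinoic acid in many cell types, and in mouse teratocarcinoma cells retinoic acid promotes differentiation towards primitive and parietal endoderm. XEN cells are the cultured counterpart of primitive endoderm.

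The promoters of Cyp26a1 and Rarb are shown because they alone among the members' promoter windows held the type of sequence that retinoic acid receptors bind. Windows from RefSeq (GRCm38.p6) ran from 250 bases before to 50 bases after an annotated start, and 8 of the 9 genes had at least 1, with 14 windows in all. Crabp2 had none in the table used. The motif, searched on both strands, was a direct repeat of 2 hexamers with 5 bases between them. A hexamer could be the consensus AGGTCA, or its variants reading AGTTCA, further GGGTCA, or lastly GGTTCA. It was found in 2 of the 14 windows, and in 0.0974% of the 32851 promoter windows of all genes. With 1 or 2 bases between the hexamers it was found in 0 of the 14 windows, against 0.222% and 0.268% of all windows. The repeats of Cyp26a1 and Rarb thus overlapped none with 1 or 2 bases between, and other spacings were not searched. With AGGTCA and AGTTCA as the only hexamers, 1 of the 14 windows held the repeat with 5 bases between, against 0.0396% of all windows. Because the members were chosen by name as retinoid genes, their share of windows is a description and no independent test. The 250 bases before each start follow on the strand of the gene, with the repeat in capitals. The Cyp26a1 sequence lies on chromosome 19, chr19:37697558-37697807, plus strand, and the Rarb sequence on chromosome 14, chr14:16575477-16575726, minus strand.
Cyp26a1: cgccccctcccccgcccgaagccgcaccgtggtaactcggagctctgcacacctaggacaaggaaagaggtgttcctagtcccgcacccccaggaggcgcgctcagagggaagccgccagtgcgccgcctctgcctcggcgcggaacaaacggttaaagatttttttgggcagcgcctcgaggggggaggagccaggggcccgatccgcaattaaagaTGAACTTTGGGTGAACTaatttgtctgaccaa
Rarb: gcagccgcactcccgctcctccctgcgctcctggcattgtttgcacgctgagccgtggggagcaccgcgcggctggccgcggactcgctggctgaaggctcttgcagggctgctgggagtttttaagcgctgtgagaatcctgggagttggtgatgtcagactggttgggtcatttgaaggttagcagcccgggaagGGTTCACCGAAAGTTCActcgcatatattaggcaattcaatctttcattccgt
The Cyp26a1 repeat, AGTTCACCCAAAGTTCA on the opposite strand, began 32 bases before the start at chr19:37697776-37697792. The Rarb repeat, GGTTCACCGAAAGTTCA, began 53 bases before the start at chr14:16575513-16575529. A match describes these letters only, and binding was not measured. The only Rarb window in the table belongs to a start inside the gene as GENCODE M21 annotates it.

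Libraries held 34916933 to 46995817 counts in genes in the retroviral OSKM, 64348250 to 73405134 in the lentiviral OSKM and 60998360 to 75376275 in the lentiviral SKM group. Levels are given as CPM, the counts of a gene relative to all gene counts of the library, scaled by the trimmed mean of M values (TMM), and a count of 0 allows up to 3 counts, or 0.0386 to 0.0848 CPM. That limit covers counting error only. All 8 listed primitive endoderm markers and all 8 parietal endoderm markers were above 1 CPM in each of the 15 lines, whereas at most 3 of 8 pluripotency markers were. Gata4 was at 559 to 1382 CPM. The lines retroviral OSKM replicate 1 and lentiviral OSKM replicate 5 stood apart with the basement membrane collagen Col4a1 at 55.3 and 62.1 CPM, against 5098 to 32354 CPM in the other 13. Where leaving out these lines much changed a correlation between members or a group difference of a member, it is also given without them. Correlations of members with other genes and with marker lists were not computed without these lines. In a bulk culture, fewer cells with a transcript and less transcript per cell cannot be told apart.

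Ordered by the median level per kilobase of exon over the 15 lines, Cyp26a1 came first at 10.4 CPM per kilobase, then Rara at 8.83, Dhrs3 at 4.39, Rarb at 2.37, Rarg at 1.74, Crabp2 at 0.631, Crabp1 at 0.164, Cyp26b1 at 0.115 and Aldh1a2 at 0. Several neighbours in this order were not separated. Cyp26a1 exceeded Rara in 8 of 15 lines, Dhrs3 exceeded Rarb in 9, Rarb exceeded Rarg in 10 and Crabp1 exceeded Cyp26b1 in 8. Rara exceeded Dhrs3 in 14 of 15 lines, Rarg exceeded Crabp2 in 12, Crabp2 exceeded Crabp1 in 13, and Cyp26b1 exceeded Aldh1a2 in 14. The spread between lines also differed from gene to gene, as the plot of levels by line shows.

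**Figure D1:**
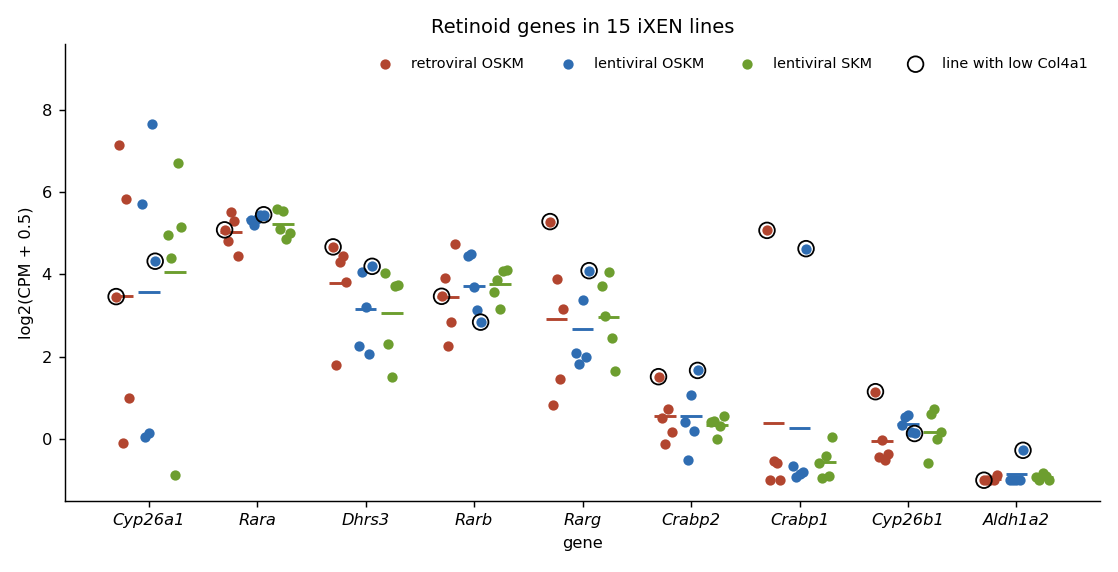
Level of each of the 9 retinoid genes as log2(CPM + 0.5) in each of the 15 iXEN lines (points), with horizontal bars for group means and black rings around the 2 lines with Col4a1 at 55.3 and 62.1 CPM; genes run from the highest to the lowest median per kilobase. Cyp26a1 spanned 0.0452 to 202 CPM and Rara 21.4 to 47.3 CPM, and Crabp1 exceeded 1 CPM in the ringed lines alone.

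Cyp26a1, the main retinoic acid hydroxylase of the early embryo, was either abundant or almost silent, and each group held lines of both kinds. It was at 10.5, 141, 0.438, 56.7 and 1.49 CPM in the 5 retroviral clones, in order of replicate. Across the lentiviral OSKM lines in the same order it was at 52.3, 0.536, 0.609, 202 and 19.5 CPM. Across the lentiviral SKM lines it was at 30.5, 20.7, 0.0452, 104 and 34.8 CPM, the third value resting on 3 counts. Thus 10 lines lay above 10 CPM, 5 lay below 2 CPM and 0 lay between, and the groups overlapped throughout. The bounds of 10 and 2 CPM were chosen after the values were seen.

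The spread of Cyp26a1 between lines was among the widest of all genes. The standard deviation of log2(CPM + 0.5) over the 15 lines was 2.91 log2 units, wider than for 99.9% of the 16687 genes that passed the filter on low counts over all libraries, whose median was 0.42. Differences between the 3 group means accounted for 0.854% of its sum of squares on this scale, against a median of 16.03% over all genes. Cyp26a1 therefore varied from line to line within each group.

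The gene whose pattern was most like that of Cyp26a1, among 11339 protein-coding genes averaging 1 CPM or more, was its relative and neighbour Cyp26c1, which encodes another retinoic acid hydroxylase. Cyp26c1 lies on chromosome 19 from 37685581 to 37693398 (GRCm38, plus strand), 4399 bases upstream of Cyp26a1, which runs from 37697798 to 37701536 on the same strand. Cyp26c1 was at 0.0555, 4.14, 0.0243, 0.424 and 0.116 CPM in the 5 retroviral clones, in order of replicate. It was at 1.96, 0.0435, 0.0135, 5.57 and 0.157 CPM across lentiviral OSKM, and at 0.73, 0.427, 0, 3.24 and 2.73 CPM across lentiviral SKM lines. In each group the line with the most Cyp26a1 also had the most Cyp26c1, and the line with the least Cyp26a1 had the least Cyp26c1 in 2 of the 3 groups, lentiviral OSKM being the exception. Over the 15 lines Spearman's rho was 0.95 and Pearson's r 0.85 on the log2(CPM + 0.5) scale. Pearson's r was 0.83 without the 2 lines farthest from the median of Cyp26a1, and over the 10 lentiviral lines alone it was 0.88 with a rho of 0.98. The 5 retroviral lines, counted in another table, are too few for a separate value. Of these Cyp26c1 values 5 rest on 3 counts or fewer, so its low end is not resolved.

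The likeness did not extend along the chromosome. The next protein-coding genes upstream, Exoc6, Hhex and Kif11, had a rho with Cyp26a1 of 0.075, 0.0071 and 0.12, and Myof downstream had −0.11 (n = 15). These neighbours were looked up after the values were seen. The second gene most like Cyp26a1 was F3, tissue factor, with a rho of 0.76 and a Pearson r of 0.57. The correlations in this account describe 15 lines whose counts came in separate tables for the retroviral and lentiviral lines. No test was made of these correlations.

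**Figure D2:**
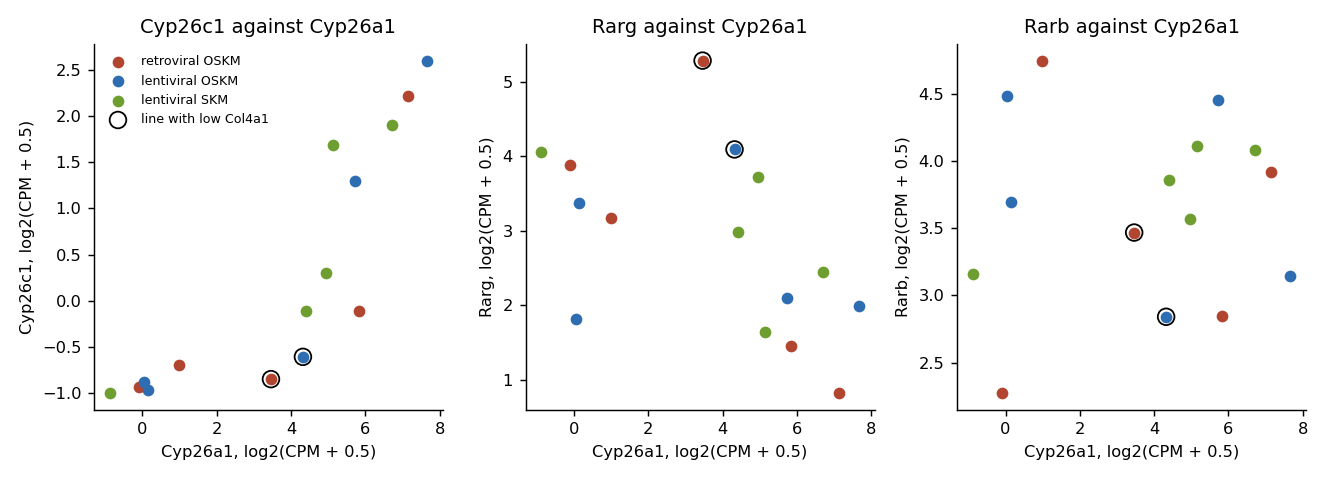
Level of Cyp26c1, Rarg and Rarb against that of Cyp26a1, all as log2(CPM + 0.5), with 1 point per line coloured by group and black rings around the 2 lines with low Col4a1. Cyp26c1 follows Cyp26a1 (rho 0.95), Rarg runs the other way (rho −0.62) and Rarb shows no ordering (rho 0.082).

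Cyp26b1, the second retinoic acid hydroxylase of the set, was low in all lines, from 0.171 to 1.72 CPM. It lies on chromosome 6 from 84571414 to 84593908 (minus strand). Retroviral OSKM lines averaged 0.585 ± 0.644 CPM, lentiviral OSKM lines 0.788 ± 0.179 CPM and lentiviral SKM lines 0.693 ± 0.4 CPM (SD, n = 5 each). Its highest value, 1.72 CPM, was in retroviral OSKM replicate 1, where the other 4 retroviral lines lay between 0.198 and 0.486 CPM. In lentiviral SKM replicate 3, where Cyp26a1 had 3 counts, Cyp26b1 was at 1.15 CPM, the highest of its group. Over all lines the rho between Cyp26a1 and Cyp26b1 was −0.41.

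Of the receptors, Rara was the steadiest and the most abundant, Rarb varied moderately, and Rarg varied most. The mean level of Rara was 33.2 ± 9.31 CPM among retroviral OSKM, 40.5 ± 2.86 among lentiviral OSKM and 37.5 ± 8.72 among lentiviral SKM lines (SD, n = 5 each). Its highest line exceeded its lowest by 2.21-fold, and its standard deviation of 0.32 log2 units was wider than for 27.7% of genes. Rara lies on chromosome 11 from 98927818 to 98974942.

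Rarb, whose promoter repeat is printed above and which is a widely used indicator of retinoic acid signalling, was at 10.6, 14.7, 4.33, 6.7 and 26.4 CPM in the 5 retroviral clones, in order of replicate. It was at 21.5, 21.9, 12.5, 8.35 and 6.67 CPM in lentiviral OSKM and at 11.4, 14, 8.45, 16.5 and 16.8 CPM across lentiviral SKM lines. Every line expressed it above 4 CPM, and the groups overlapped. The lines with almost no Cyp26a1 included both the highest and the lowest Rarb value of all lines, 26.4 CPM for the fifth retroviral clone and 4.33 CPM for the third. Rarb and Cyp26a1 showed no common ordering, with a rho of 0.082 and a Pearson r of 0.059. Without the 2 lines farthest from the median of Cyp26a1 r was −0.37. Any part of the promoter repeats in these levels was not tested. Rarb lies on chromosome 14 from 16430839 to 16819156, and its exons overlap those of Top2b, a DNA topoisomerase gene on the opposite strand. Its exons also overlap those of the antisense gene Gm48162, which is not among the counted genes. Whether counting used the strand is not known here. Reads from where these exons overlap may therefore be missing from the Rarb counts or wrongly included in them. Entries counted as ambiguous, 3.77% to 6.49% per library, were left out of all gene counts.

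Rarg, the receptor prominent in early embryo and in cartilage, was at 38.5, 1.26, 14.3, 2.23 and 8.48 CPM in the 5 retroviral clones, in order of replicate. It was at 3.79, 3.03, 9.87, 3.49 and 16.5 CPM in lentiviral OSKM and at 12.7, 7.4, 16.2, 4.95 and 2.62 CPM across lentiviral SKM lines. Its highest line exceeded its lowest by 30.4-fold, and the highest lentiviral OSKM and the highest retroviral OSKM line were those with low Col4a1. Among the other 13 lines it still ranged from 1.26 to 16.2 CPM. Rarg lies on chromosome 15 from 102234938 to 102257517 (minus strand). Rarg ran against Cyp26a1, with a rho of −0.62 and a Pearson r of −0.50. Without the 2 lines with low Col4a1 these were −0.69 and −0.65, without the 2 lines farthest from the median of Cyp26a1 r was −0.37, and over the 10 lentiviral lines the values were −0.44 and −0.38. Rara and Rarb also ran against each other, with a rho of −0.66 and r of −0.67, and −0.70 and −0.62 over the 10 lentiviral lines.

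Per kilobase of exon, the shares of Rarb and Rarg differed more between lines, relative to their means, than the total or the Rara share did. The summed level of the 3 receptors ran from 9.38 to 18.7 CPM per kilobase, with a mean of 13.3 ± 2.5 (SD, n = 15). Rara supplied 64.5 ± 11.3% of it, Rarb 20.2 ± 10.9% and Rarg 15.3 ± 11.9% (SD, n = 15). The extremes all lay among the retroviral clones, where the Rarg share ran from 3.16% (replicate 2) to 48.3% (replicate 1) and the Rarb share from 5.65% (replicate 3) to 42.1% (replicate 5). Rara was the most abundant receptor per kilobase in 13 of 15 lines, Rarg leading in the first retroviral clone (48.3% against 41.0%) and Rarb, narrowly, in the fifth (42.1% against 41.2%).

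**Figure D3:**
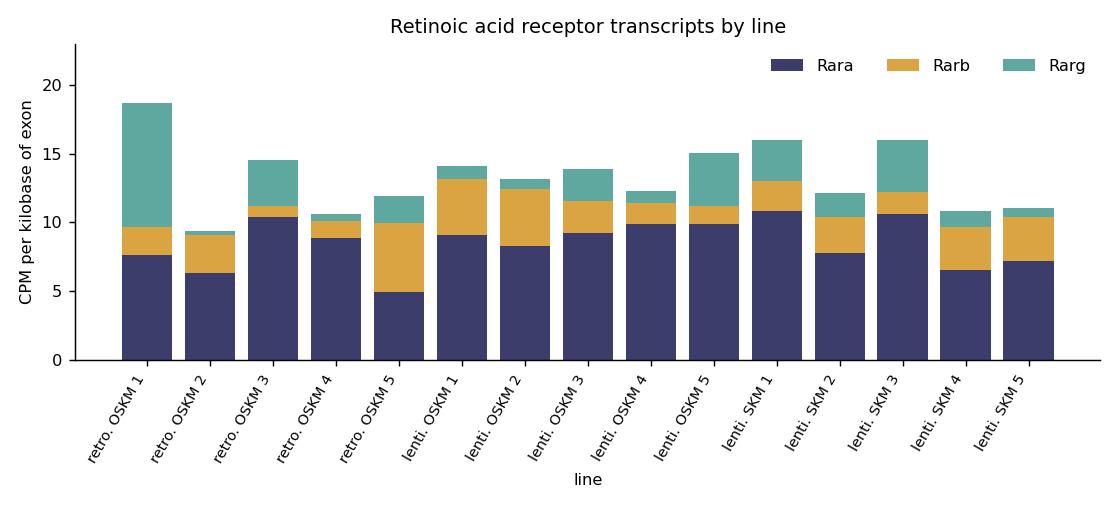
Level of the 3 retinoic acid receptors in CPM per kilobase of exon, stacked for each of the 15 lines. Rara forms the largest block in 13 lines, and the total stays between 9.38 and 18.7 CPM per kilobase.

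Dhrs3, a short-chain reductase that returns retinaldehyde to retinol, was at 24.9, 2.96, 19.1, 21.5 and 13.5 CPM in the 5 retroviral clones, in order of replicate. It was at 4.26, 16.2, 8.7, 3.66 and 17.8 CPM in lentiviral OSKM and at 15.8, 4.49, 2.34, 12.7 and 12.8 CPM across lentiviral SKM lines. Low lines, below 5 CPM, occurred in every group, 1 in retroviral OSKM and 2 in each lentiviral group. They included the lines with the most Cyp26a1 of both OSKM groups and the lentiviral SKM line with the least, and the rho between the genes was −0.25. Dhrs3 is on chromosome 4 from 144892827 to 144928209.

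Crabp1 was the member closest to an on-off pattern, and it was on only in the 2 lines with low Col4a1. This cytoplasmic retinoic acid binding protein reached 33.1 CPM, from 1193 counts, in the first of them (retroviral OSKM replicate 1) and 24.2 CPM, from 1699 counts, in the second (lentiviral OSKM replicate 5). In the other 13 lines it ran from 0 to 0.527 CPM, and it had no count in retroviral OSKM replicates 2 and 5. No lentiviral SKM line exceeded 0.527 CPM. Crabp1 lies on chromosome 9 from 54764748 to 54773110. The related Crabp2, which in mammalian cells carries retinoic acid to the receptors, was highest in the same lines, at 2.36 and 2.68 CPM, and ran from 0.203 to 1.6 CPM in the others. Crabp2 lies on chromosome 3 from 87948666 to 87953376, and its group means were 1.09 ± 0.761 CPM for retroviral OSKM, 1.19 ± 0.971 for lentiviral OSKM and 0.779 ± 0.178 for lentiviral SKM (SD, n = 5 each). Dhrs3 and Rarg were also higher in each of these lines than in every other line of its own group. With these lines Pearson's r between Crabp1 and Crabp2 was 0.77 and between Crabp1 and Rarg 0.62. Without them it was 0.078 and 0.095 (n = 13), so both relations rest on these lines.

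Fibroblast markers moved with part of this pattern. The summed level of the 12 listed fibroblast markers was 615 CPM in lentiviral OSKM replicate 5 and 246 CPM in retroviral OSKM replicate 1, and ranged from 9.84 to 332 CPM in the other lines. The value of 332 CPM belonged to lentiviral SKM replicate 1, where Crabp1 was at 0.171 CPM. Of the 12 markers 9 exceeded 1 CPM in lentiviral OSKM replicate 5 and 5 in retroviral OSKM replicate 1, but 7 did in lentiviral SKM replicate 1 and 6 in lentiviral SKM replicate 2, where Crabp1 was at 0.0164 CPM. The sum in retroviral OSKM replicate 1 came mostly from Prrx1, a mesenchymal transcription factor, at 152.9 CPM. Dpt and Lum, among the defining markers, stayed at or below 0.199 and 0.0855 CPM in every line. Of the 5 neural markers 3 exceeded 1 CPM in retroviral OSKM replicate 1 and 2 in each other line. The third was Sox1, a neural progenitor factor, at 6.69 CPM, against at most 0.323 CPM elsewhere. The summed neural level was 118 CPM in that line and 120 CPM in lentiviral OSKM replicate 5, within the range of 18.9 to 189 CPM in the others. The part of fibroblast-like or neural cells in the Crabp1 level was not tested.

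Aldh1a2, which makes retinoic acid in mesoderm of the early embryo, was effectively silent. It had no count in 10 of 15 lines, 2 to 4 counts in 4 lines, and 23 counts (0.328 CPM) in lentiviral OSKM replicate 5. It did not pass the filter on low counts. It lies on chromosome 9 from 71215789 to 71296243.

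Beyond the 9 members, 50 other genes of the pathway were listed by role, and the lines expressed some steps strongly and others hardly at all. Genes given here beyond the 2 most abundant of each role were chosen after their values were seen. Stra6, a cell-surface receptor that takes up retinol from its carrier, was at 71.9 to 748 CPM, and the carrier Rbp4 at 0.465 to 326 CPM. By contrast the retinol-storing enzyme Lrat had no count in any of the 15 lines. Of the genes listed under synthesis, Adh5 was at 106 to 229 CPM and Rdh11 at 16.1 to 63 CPM. Rdh10, the retinol dehydrogenase essential in mouse embryos, was at 8.25 to 22.7 CPM. The retinaldehyde dehydrogenases that would complete the synthesis were low: Aldh1a1 reached at most 1.84 CPM and Aldh1a3 at most 4.41 CPM. The sum of Aldh1a1, Aldh1a2 and Aldh1a3 had a median of 0.688 CPM and was below 1 CPM in 9 of 15 lines, with the highest value, 5.22 CPM, in retroviral OSKM replicate 1. Of the clearance and binding genes, Cyp2s1, a cytochrome P450, was at 4.38 to 118 CPM and the fatty acid binding protein Fabp5, which can also bind retinoic acid, at 1.75 to 126 CPM.

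Among the partners of the receptors Rxrb was even across lines, at 45.3 to 69.4 CPM, whereas Rxra ranged from 0.186 to 9.15 CPM and Rxrg stayed below 0.1 CPM at 0 to 0.087. Ppard, a fatty acid receptor that like the retinoic acid receptors pairs with RXR, was at 22.2 to 60.2 CPM. The coactivator Ncoa3 and the corepressor Ncor1 were at 116 to 235 and 116 to 200 CPM. Of the responsive genes Btg2, an antiproliferative gene, was at 167 to 394 CPM, whereas Hoxb1, a classical retinoic acid target, had no count in 14 of 15 lines.

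**Figure D4:**
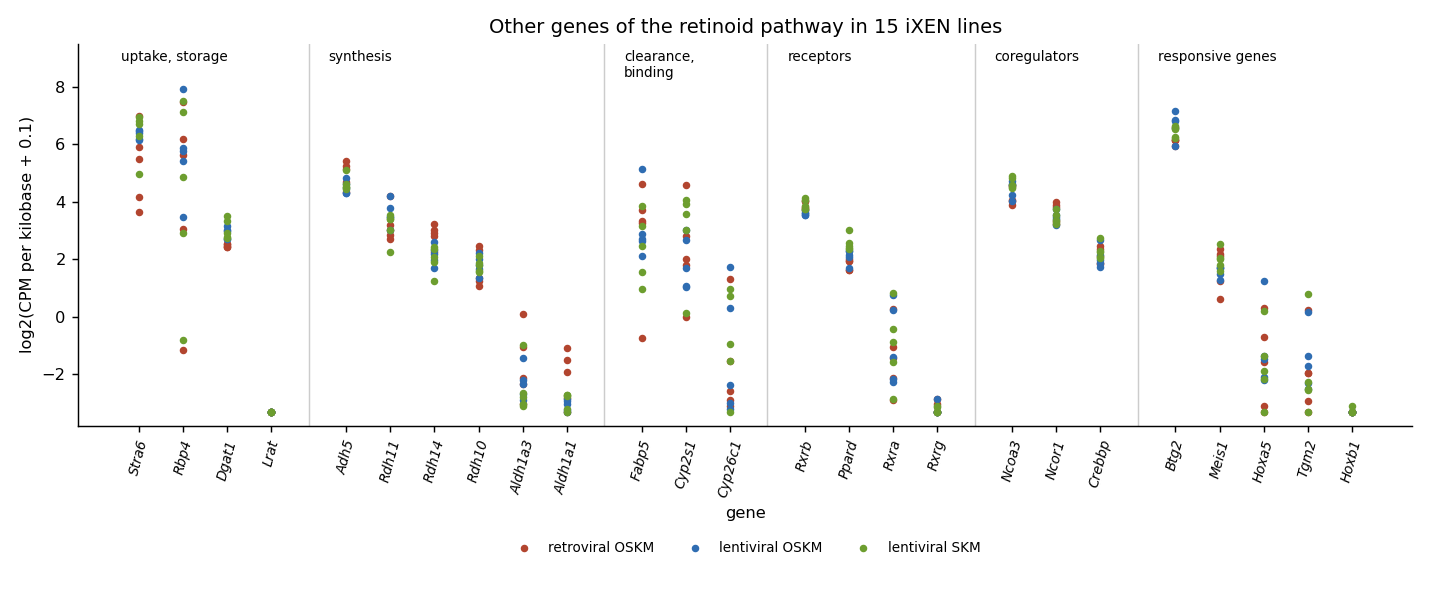
Level of 25 of the 50 other retinoid pathway genes, those named in the text, as log2(CPM per kilobase of exon + 0.1), with 1 point per line coloured by group and genes arranged by role and by median. Stra6 and Rbp4 stand at the top of uptake, Aldh1a1 and Aldh1a3 near the bottom of synthesis, and Lrat had no count in any line.

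Of the 39 pathway genes that passed the filter over all libraries, Cyp26c1 alone had a rho above 0.6 with Cyp26a1, and the median rho was −0.07. With Rarb 2 genes exceeded that bound, the homeobox gene Meis1 (rho 0.65) and the acetyltransferase Crebbp (rho 0.63), and with Rarg 3 did, Ncor1 (0.66), Hoxa5 (0.64) and Tgm2 (0.64). Over the 10 lentiviral lines these 5 values were 0.48, 0.52, 0.47, 0.48 and 0.41. Other genes lay beyond 0.6 in either direction in those 10 lines, such as Rdh11 with Rarb (−0.72) and Fabp5 with Rarg (0.65). Which genes passed the bound thus depended on the lines used. The highest likeness among all 11339 genes was 0.95 for Rara with Pnpla7, 0.93 for Rarb with Gabpb2, 0.94 for Rarg with Csad, 0.90 for Dhrs3 with Fam135a, 0.86 for Crabp1 with Ssc5d and 0.85 for Crabp2 with Med11. The second was Ctps2 (0.88) for Rara, Ass1 (0.91) for Rarg, Stk38l (0.89) for Dhrs3, Eef2k (0.86) for Crabp1 and Dpysl2 (0.84) for Crabp2. Each of these is the highest or the second of 11339 values over 15 lines. Crabp1 was at 0 to 0.527 CPM in 13 of the lines, so its ranks near 0 are not resolved. Its Pearson's r was 0.55 with Ssc5d and 0.63 with Eef2k.

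Among the marker lists, Cyp26a1 had its highest rho, 0.61, with the median of the 8 visceral endoderm markers, and Rarb its highest, 0.68, with that of the 8 primitive endoderm markers (n = 15). Rarg had a rho of −0.50 with the visceral endoderm median, and Dhrs3 one of −0.62 with the primitive endoderm median. With the summed level of the same markers in place of the median these values were 0.28 for Cyp26a1, 0.75 for Rarb, −0.19 for Rarg and −0.54 for Dhrs3, so those of Cyp26a1 and Rarg depend on the summary. The rho of Rarb with the 5 neural markers also depended on it, at 0.13 with their median and −0.80 with their sum. Whether the make-up of the cultures contributed to the receptor and Cyp26a1 levels was not tested.

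Lines made by lentivirus without Oct4 were set against those made with it, the comparison named in the series description. No retinoid gene passed the test of the difference between these groups. The mean of Cyp26a1 was 38.0 ± 39.2 CPM without Oct4 and 55.03 ± 84.9 CPM with it (SD, n = 5 each), a log2 fold change of −0.53 (SE 1.49, 95% interval −3.8 to 2.74). Only Rara was measured closely, with a log2 fold change of −0.11 (interval −0.48 to 0.25). For Rarb it was −0.084 (−0.87 to 0.70), for Rarg 0.25 (−1.05 to 1.56), for Dhrs3 −0.070 (−1.37 to 1.23), for Crabp2 −0.61 (−1.89 to 0.67) and for Cyp26b1 −0.19 (−1.25 to 0.86). Without lentiviral OSKM replicate 5, a line with low Col4a1, the value was −0.075 for Crabp2, 0.80 for Rarg, 0.23 for Dhrs3 and −0.27 for Rarb. Of the 9 genes 7 passed the filter, with 1 higher and 6 lower and a median of −0.11, beside −0.0012 over all 15899 genes tested. With the quasi-likelihood test of edgeR, adjusted by Benjamini-Hochberg, 0 of the 7 passed at 0.05 (smallest adjusted p = 0.987), where 0% of all genes were called. At an unadjusted p under 0.05 the count was also 0 of 7, against 4.86% of all genes. The groups did not overlap for 0 of 7, against 0.748% of all genes, and DESeq2 and both forms of limma voom, plain and quality-weighted, called 0 members too. Crabp1 and Aldh1a2 did not pass the filter.

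The second comparison was between retroviral and lentiviral delivery of the same 4 factors. In it virus, cloning, count table and library depth cannot be told apart. A passage bound is recorded here for the lentiviral lines alone. This comparison shares the lentiviral OSKM lines with the first comparison. Again no retinoid gene passed. The mean of Dhrs3 was 16.4 ± 8.59 CPM with retrovirus and 10.1 ± 6.61 CPM with lentivirus (SD, n = 5 each), a log2 fold change of 0.70 (SE 0.58, interval −0.59 to 1.98), with 4 of 5 retroviral lines above the lentiviral mean. Rarg had a log2 fold change of 0.82 (−1.04 to 2.68). Rara averaged 33.2 against 40.5 CPM, −0.28 (−0.73 to 0.16), Cyp26a1 had −0.39 (−3.84 to 3.06), Rarb −0.18 (−1.28 to 0.93), Crabp2 −0.12 (−1.61 to 1.36) and Cyp26b1 −0.42 (−1.76 to 0.91). Without retroviral OSKM replicate 1 the value was −0.16 for Rarg, −1.38 for Cyp26b1 and −0.62 for Crabp2. Without both lines with low Col4a1 it was 0.39 for Rarg, −1.46 for Cyp26b1 and −0.075 for Crabp2, and none of these passed. Of 7 members tested 2 were higher and 5 lower, with a median of −0.18 beside 0.029 over all 15483 genes tested. By the same edgeR test and adjustment 0 of 7 passed (smallest adjusted p = 0.558), where 0.252% of all genes were called. At an unadjusted p under 0.05 the count was 0 of 7, against 14.5% of all genes, the groups did not overlap for 0 of 7, against 3.98%, and the other tools again called 0 members.

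**Figure D5:**
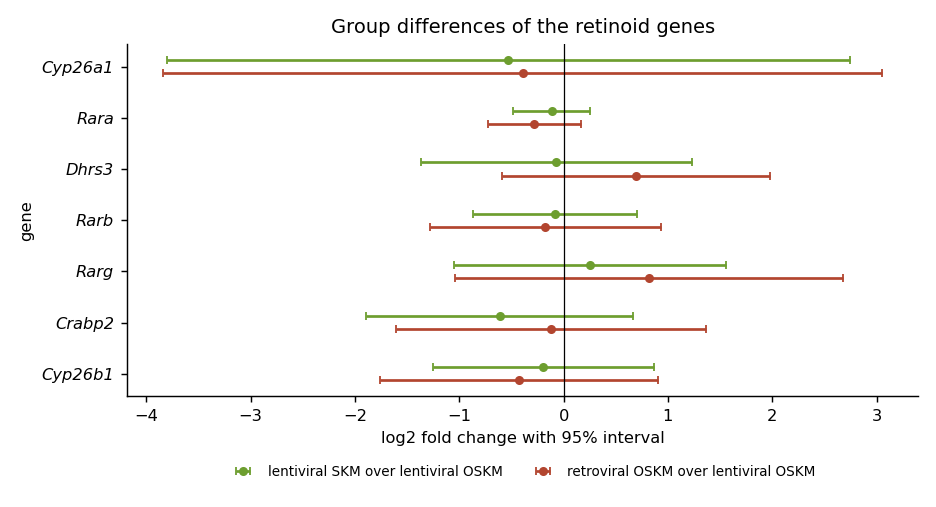
Log2 fold change of the 7 retinoid genes tested, lentiviral SKM over lentiviral OSKM (green) and retroviral OSKM over lentiviral OSKM (red), with 95% intervals from edgeR's fit. Each interval includes 0, and those of Rara are the narrowest and those of Cyp26a1 the widest.

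Among the other 50 pathway genes edgeR's quasi-likelihood test called 0 of the 38 tested in the lentiviral comparison and 0 of the 37 tested in the retroviral comparison. In the lentiviral comparison 20 were higher and 18 lower, with a median log2 fold change of 0.039, and 3 of 38 had an unadjusted p under 0.05, where 4.86% of all genes did. The groups did not overlap for 2 of 38, against 0.748% of all genes. By role, 4 of 5 uptake and storage genes, 2 of 9 synthesis genes, 1 of 3 clearance and binding genes, 2 of 3 receptors, 6 of 8 coregulators and 5 of 10 responsive genes were higher without Oct4, beside 7916 of all 15899 genes. The 3 genes were the receptors Rxrb, with a log2 fold change of 0.31 (SE 0.12), and Ppard, with 0.47 (SE 0.18), and the responsive gene Meis1, with 0.46 (SE 0.19), each with an adjusted p of 0.979 in edgeR's test. In the retroviral comparison 20 were higher and 17 lower, with a median of 0.064, and 5 of 37 had an unadjusted p under 0.05, a share near the 14.5% of all genes. The groups did not overlap for 1 of 37, against 3.98% of all genes. By role, 2 of 5 uptake and storage genes, 8 of 10 synthesis genes, 1 of 2 clearance and binding genes, 1 of 3 receptors, 5 of 8 coregulators and 3 of 9 responsive genes were higher in the retroviral lines, beside 8095 of all 15483 genes. The 5 genes were the acyltransferase Dgat1 (−0.46), Btg2 (−0.50), the dehydrogenases Rdh14 (0.71) and Adh5 (0.49), and Aldh1a1 (3.12), with adjusted p from 0.248 to 0.338 in edgeR's test. The mean of Aldh1a1 was 0.814 CPM in retroviral OSKM and 0.092 CPM in lentiviral OSKM lines, the latter from 0 to 13 counts per line. DESeq2 called Dgat1 alone in the retroviral comparison, with a log2 fold change of −0.46 (adjusted p = 0.0469), where it called 623 genes or 4.02% of all, and 0 in the lentiviral comparison, where it called 44 or 0.277%. Limma voom, with and without quality weights, called 0 in both.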

How the data were processed

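Whole-number read counts per Ensembl gene were deposited by the authors in 2 tables, for the retroviral and the lentiviral lines. The submitters' processing notes name HTSeq 0.11.2, HISAT2 2.1.0 and mm10, as well as Trimmomatic 0.39, SAMtools 1.9 and FastQC 0.11.7. Not given in the sources used here are the annotation, the strand setting and the filter that the submitters mention. The tables were joined, and 5 HTSeq summary rows were left out. Between 68.8% and 77.0% of the entries per library fell in genes. Names, positions and exon lengths came from GENCODE M21 (GRCm38), which matched 42462 of 43432 identifiers.

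Tests used edgeR 4.0.16 in R 4.3.3 on the counts of the 10 lines compared: filterByExpr at its minimum count of 10, then TMM scaling and the quasi-likelihood test, with Benjamini-Hochberg adjustment over all genes tested. The same fit was also tested on simulated data with known changes. Each SE was taken as log2 fold change over the square root of the F statistic. Alternatives included DESeq2 1.42.0 and limma 3.58.1. The members and lists were chosen with earlier results of these data known. Named were all 9 members, the 2 most abundant pathway genes of each role where none passed, and the 2 genes of highest Spearman's rho per member averaging 1 CPM or more. Cyp26c1 was named by the last part of that rule. Some genes that this rule selects are left out of the text. Same-numbered lines were not paired by the labels.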

Additional observations from a re-analysis of the deposited data

Results flagged for a closer look

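Within groups of 5 lines, a line was taken as set apart where its gap to the nearest other line exceeded 0.71 of the range of the group on the log2(CPM + 0.5) scale, the 95% critical value of Dixon's test. Combinations with at most 3 counts in every line were left out, which removed Aldh1a2 in retroviral OSKM. Of 26 combinations of member and group tested, 3 met it, and chance gives about 1 in 20. Crabp1 met it in retroviral OSKM replicate 1, at 33.1 CPM against 0 to 0.195 CPM in the other 4 lines, and in lentiviral OSKM replicate 5, at 24.2 CPM against 0.029 to 0.132 CPM. Aldh1a2 met it in lentiviral OSKM replicate 5, at 0.328 CPM, from 23 counts, where the other 4 lines had no count. With those lines tied at 0 any value above 0 exceeds that bound, so this case says only that the gene was counted in 1 line.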

How the results depend on the processing

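No member passed in either comparison under any alternative run, and of 313 log2 fold changes of members under an alternative 284 kept their direction. Cyp26a1 in lentiviral SKM over OSKM was 0.16 with limma voom, 1.01 with sample quality weights, 0.040 with the replicate number as a block and −1.35 to 1.05 with 1 line left out. In retroviral over lentiviral OSKM it was 1.21 with quality weights and −1.70 to 1.20 with lines left out. In the lentiviral comparison Rarb was 0.044 with voom, 0.021 with the replicate block and −0.27 to 0.12 with 1 line left out. With quality weights Dhrs3 was 0.069 and Crabp2 0.20. Leaving out lines gave −0.33 to 0.23 for Dhrs3, −0.45 to 0.053 for Cyp26b1 and −0.086 to 0.80 for Rarg. In the retroviral comparison Crabp2 was 0.071 with voom, 0.61 with quality weights, 0.14 with the replicate block and −0.62 to 0.42 with lines left out, Rarb −0.67 to 0.042 and Rarg −0.16 to 1.37. Without reversing, leaving out lines gave −0.88 to −0.075 for Crabp2 in the lentiviral and −1.46 to −0.21 for Cyp26b1 in the retroviral comparison. The cause was not tested.

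All genes called numbered 0 in the lentiviral comparison but 44 with DESeq2. In the retroviral comparison the 39 calls became 623 with DESeq2, 63 with voom, 225 with quality weights, 24 with no filter, 62 with a minimum count of 50, 155 with all 15 libraries in the fit, 128 at an adjusted p under 0.1, 15 to 101 with 1 line left out and 10 without both lines with low Col4a1, an alternative chosen after seeing the data. With the replicate block they became 3. Same-numbered lines had correlations of deviations from −0.12 to 0.29 and −0.17 to 0.02. These values do not show a pairing by number and cannot exclude one. Of pathway genes 1 was called with DESeq2 in the retroviral comparison and 0 otherwise. With AGGTCA and AGTTCA as the only hexamers 1 member, Cyp26a1, kept its repeat. Of 72 levels and spreads under another pseudocount or other alternatives, 62 moved by less than the spread between lines. Of the 36 correlations between members 18 moved without both lines with low Col4a1, among them those of Crabp1 with Crabp2 and Rarg.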
